A study of Mus musculus with 12 samples.

Results

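The second day of Neurog1 induction in mouse embryonic stem (ES) cells is described here by comparing cells after 48 h with cells after 24 h of transgene expression. The comparison uses 6 of the 12 Affymetrix arrays of the series, all that carry either time in their titles, with 3 arrays per time. All arrays came from mouse ES cells (strain 129P2/OlaHsd; labelled E14 and Ainv15) with a tetracycline-inducible Neurog1, and 1 ug/ml doxycycline switched it on in both groups. Per the labels' protocols the medium was DMEM with 10% FBS, LIF (a cytokine that holds ES cells undifferentiated) and the selection drugs puromycin and G418. The other arrays, 3 of uninduced cells of the maintenance culture (0 h) and 3 of cells induced for 72 h, entered the estimate of spread and are quoted as reference levels. No uninduced cells were sampled at 24 or 48 h, so effects of the transgene, of doxycycline and of the second day of culture itself cannot be told apart. The labels call the replicates biological, but do not say whether they came from separate cultures, so p-values measure the spread between these arrays. Of 18193 genes with a probe set of a single symbol, 11810 were tested.

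Neurog1 is a proneural basic helix-loop-helix (bHLH) transcription factor that pairs with E proteins, binds E-box DNA and starts a cascade of later neuronal factors in sensory ganglia and the neural tube. Id proteins sequester E proteins and so oppose such factors. In the embryo, proneural factors raise Delta-like ligands in the cell that will become a neuron, and Notch in the neighbour then raises Hes repressors, which hold it as a progenitor. ES cells are kept by a network around Pou5f1, Nanog, Sox2, Esrrb and Klf4, and pass through a formative, epiblast-like state as that network is shut down.

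One of the 24 h arrays stood apart from its group. Across the tested genes, 24 h replicate 1 correlated at r = 0.787 and 0.812 with the other 24 h arrays, which correlated at 0.977 with each other. In the other groups no pair of replicates was under 0.961. The odd array held 373 genes 2-fold or more over, and 1265 genes 2-fold or more under, any of the other 11. On it the ratio of 3' to 5' signal of the control gene Pcx was 6.81 against 1.22 to 2.8 elsewhere. The ratios for Gapdh (0.862) and Actb (1.42) lay within those of the other arrays (0.658 to 0.864 and 1.34 to 1.54). Median signals ran from 19.5 to 32.8. Each result is therefore given for 3 arrays against 3 and again with 24 h replicates 2 and 3 only. Summed signals of lists are the exception and are ranges over all arrays of a time, 24 h replicate 1 included.

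Neurog1 itself was present at both times. Its signal was 756, 931 and 974 at 24 h and 1089, 1152 and 889 at 48 h, against 4.53 to 18.7 in uninduced cells, and the arrays of 24 and 48 h overlapped. The log2 difference, 48 h minus 24 h, was 0.23 ± 0.27 (adjusted p = 0.565) and 0.12 ± 0.24 without 24 h replicate 1 (adjusted p = 0.757). Here and below, differences are on the log2(signal + 16) scale ± standard error from limma, with p adjusted by Benjamini-Hochberg over all 11810 genes. The other of its 2 probe sets moved the opposite way, and which transcript either reads, transgene or endogenous, is not given.

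Between 24 and 48 h, 2140 of 11810 tested genes (18.1%) passed an adjusted p under 0.05, with 1236 higher (10.5%) and 904 lower (7.65%) at 48 h. Without 24 h replicate 1, 3027 genes passed (25.6%), 1681 higher (14.2%) and 1346 lower (11.4%). The fits shared 1980 calls in the same direction, which is 92.5% of the first and 65.4% of the second, and 0 calls were opposite. Called differences of at least 1 on the log2 scale numbered 1632 (13.8%; 8.47% higher and 5.35% lower) and, without that array, 1559 (13.2%; 8.4% and 4.8%). All 48 h arrays lay above all 24 h arrays for 19.8% of genes and below them for 17.7%, or 29% and 27.1% without it. The median difference over all tested genes was 0.02 in both fits. After quantile normalization 45.8% of calls were higher, against 57.8% with the authors' scaling, and the median over all genes shifted by -0.11, so small differences of either sign depend on the scaling. Leaving out 48 h replicate 1 lowered the calls to 1215 and leaving out 48 h replicate 2 to 1349. In RNA from a mixed culture, fewer cells of a type and less RNA per cell cannot be told apart.

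The largest rises were of Rufy3, Rgs4, Ppp1r17, Dcc, Ptn and Dcx. Rufy3, which acts in axon growth, had signals of 0.705, 18.4 and 22.1 at 24 h and 1697, 1837 and 955 at 48 h. Rgs4, a brake on G-protein signalling, gave 0.818, 70.2 and 0.755 at 24 h and 1442, 1271 and 1381 at 48 h. Dcx, the microtubule-binding protein of migrating neurons, gave 17.2, 65.1 and 27.5 at 24 h and 928, 1073 and 720.1 at 48 h. In each, the 3 arrays at 48 h lay far above the 3 at 24 h and the groups did not overlap. Rufy3 rose by 5.70 ± 0.43 (adjusted p = 2.01e-05) and 5.33 ± 0.39 without 24 h replicate 1 (adjusted p = 3.61e-06). Rgs4 rose by 5.57 ± 0.50 (adjusted p = 2.96e-05) and 5.18 ± 0.47 without 24 h replicate 1 (adjusted p = 1.36e-05). Dcx rose by 4.22 ± 0.31 (adjusted p = 2.01e-05) and 3.94 ± 0.25 without 24 h replicate 1 (adjusted p = 2.55e-06). Sizes depended on the constant added before the logarithm and on the choice of probe set: over the alternatives Rufy3 ranged from 2.55 to 7.30 and Rgs4 from 4.11 to 7.80 and both were called in each. For Rufy3, Dcc, Nr2f1, Ntrk3, Slc18a2, Ednrb, Pcdh17, Cxcr4 and Nfia every 24 h signal was under its array's median, so the sizes of their rises are set in part by that constant. Pcdh17 ranged from 1.82 to 4.67 over the alternatives. Of the 6 Rufy3 probe sets 1 moved the other way.

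Among the 15 largest rises were also the netrin receptor Dcc (4.36 ± 0.33 and 4.32 ± 0.35 in the fits with and without 24 h replicate 1), the growth factor pleiotrophin, Ptn (4.23 ± 0.36 and 3.87 ± 0.29), and Ppp1r17, a regulator of protein phosphatase (4.88 ± 0.31 and 4.81 ± 0.30). Genes of regulated secretion were chromogranin B, Chgb (3.95 ± 0.34 and 3.69 ± 0.32), secretogranin Scg3 (3.84 ± 0.30 and 3.69 ± 0.28) and the SNARE protein Snap25 (3.94 ± 0.32 and 3.59 ± 0.24). Transcriptional regulators were the Notch effector Hes5 (4.12 ± 0.41 and 4.59 ± 0.32), the bHLH antagonist Id3 (4.06 ± 0.65 and 4.15 ± 0.69), the bHLH factor Nhlh2 (3.93 ± 0.41 and 3.53 ± 0.35) and the zinc-finger factor Plagl1 (3.93 ± 0.74 and 3.34 ± 0.71), of whose 3 probe sets 1 moved the other way. The list was completed by the protocadherin Pcdh8 (3.99 ± 0.39 and 4.14 ± 0.39) and Crabp1, which binds retinoic acid in the cytoplasm (3.90 ± 0.31 and 4.09 ± 0.29). Without 24 h replicate 1, 12 of the 15 were again among the 15 largest, joined by the peptide genes galanin, Gal (3.98 ± 0.28), and somatostatin, Sst (3.63 ± 0.53), and by Clvs1 (3.81 ± 0.34). In both sets of 15, every member passed in both fits.

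**Figure D1:**
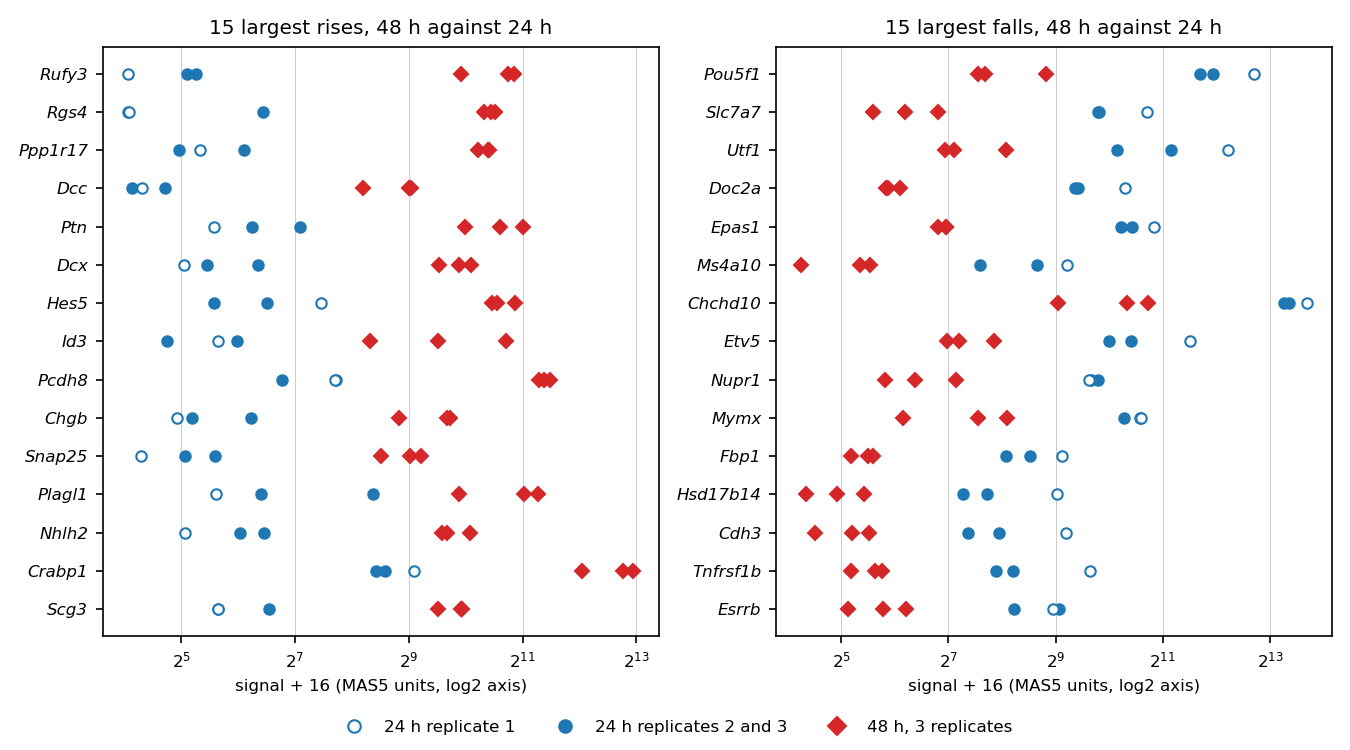
Signal + 16 (MAS5 units, log2 axis) of the 15 largest rises (left) and 15 largest falls (right) on each 24 h array (circles, open for replicate 1) and each 48 h array (diamonds). Genes were chosen for groups that do not overlap; Rufy3 runs from 0.705, 18.4 and 22.1 at 24 h to 1697, 1837 and 955 at 48 h, Pou5f1 from 6676, 3919 and 3295 to 190.0, 438 and 171.

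Proneural factors are known to bind E-boxes. The E-box letters CAGATG, the symmetric CATATG with its AT centre, and the form CAGCTG were searched on both strands in RefSeq promoters (build GRCm38.p6, 250 bases before to 50 after the first listed start; 9576 of the tested genes had one). CAGATG occurred in 13.0% of promoters of genes called higher, 14.1% of those called lower and 11.1% of all tested. CAGCTG occurred in 19.5%, 16.8% and 14.5%, and CATATG in 1.89%, 2.17% and 1.54%. Without 24 h replicate 1 the shares for higher and lower genes were 12.9% and 12.9% for CAGATG, 18% and 14.3% for CAGCTG and 1.45% and 1.74% for CATATG. In the table of 27025 promoters the shares were 17.2%, 16.1% and 3.91%. As examples, the stretches around the match nearest before the start are shown for the first 3 of the largest rises that hold one, 5′ to 3′ on the gene's strand, with the E-box in capitals (CATCTG is CAGATG on the other strand). They are Rufy3 (chr5:88564968-88565033, plus strand), Rgs4 (chr1:169747670-169747735, minus strand) and Plagl1 (chr10:13090728-13090793, plus strand).
Rufy3: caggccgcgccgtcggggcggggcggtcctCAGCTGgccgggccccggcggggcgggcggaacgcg
Rgs4: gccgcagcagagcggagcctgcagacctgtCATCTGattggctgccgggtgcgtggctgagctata
Plagl1: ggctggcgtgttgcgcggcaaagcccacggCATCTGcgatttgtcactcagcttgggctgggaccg
The matches begin 42, 63 and 74 bases before the start site. A match is a description of these letters, not of binding.

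The largest falls combined pluripotency genes with genes that had been high at 24 h. Pou5f1, the Oct4 factor of the ES cell network, had signals of 6676, 3919 and 3295 at 24 h and 190.0, 438 and 171 at 48 h, against 4936 to 6063 in uninduced cells. At 24 h replicate 1 lay above and replicates 2 and 3 below the uninduced range, and all 48 h arrays were far lower. The difference was -4.09 ± 0.45 (adjusted p = 1.04e-04) and -3.80 ± 0.44 without 24 h replicate 1 (adjusted p = 7.29e-05). Utf1 (-3.80 ± 0.56 and -3.28 ± 0.50), Esrrb (-3.05 ± 0.31 and -2.95 ± 0.32), the ETS factor Etv5 (-3.30 ± 0.36 and -2.86 ± 0.26) and the mitochondrial gene Chchd10 (-3.41 ± 0.43 and -3.28 ± 0.45) also fell. So did the amino acid transporter Slc7a7 (-3.90 ± 0.40 and -3.60 ± 0.37), the stress protein Nupr1 (-3.25 ± 0.31 and -3.29 ± 0.32), the fusion peptide gene Mymx (-3.22 ± 0.52 and -3.17 ± 0.55), Ms4a10 (-3.43 ± 0.45 and -3.07 ± 0.44) and the steroid dehydrogenase Hsd17b14 (-3.11 ± 0.43 and -2.60 ± 0.35).

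All 24 h arrays lay above all uninduced arrays for 9 of the 15 largest falls, for 8 of the 15 of the fit without 24 h replicate 1 and for 17.4% of all tested genes. The 24 h arrays enter both comparisons and the genes were chosen partly for high 24 h values, so the counts are only descriptive. Doc2a, a calcium sensor of vesicle release, had signals of 12.6, 14.1 and 27.8 in uninduced cells, 1243, 665 and 645 at 24 h, 52.1, 42.8 and 41.0 at 48 h and 63.6, 54.4 and 27.3 at 72 h. It was high at 24 h alone. P-cadherin, Cdh3, took the same course, with 40.6 to 57.5 in uninduced cells, 572, 230.0 and 149 at 24 h, 6.83, 29.9 and 20.7 at 48 h and 15.2 to 25.7 at 72 h. So did the TNF receptor gene Tnfrsf1b, with 20.9 to 34.0 in uninduced cells, 779, 222 and 278 at 24 h, 38.0, 20.3 and 33.6 at 48 h and 15.2 to 43.3 at 72 h. The second-day difference was -3.76 ± 0.31 and -3.46 ± 0.28 for Doc2a, -3.09 ± 0.40 and -2.58 ± 0.30 for Cdh3 and -3.05 ± 0.40 and -2.53 ± 0.29 for Tnfrsf1b. The hypoxia factor Epas1 (-3.59 ± 0.34 and -3.42 ± 0.33) and the gluconeogenic enzyme Fbp1 (-3.14 ± 0.31 and -2.87 ± 0.29) completed the list. On 24 h replicate 1 each of Doc2a, Cdh3, Tnfrsf1b, Epas1 and Fbp1 was higher than on the other 24 h arrays. Of the 15, 10 recurred without that array, joined by L1td1, Triml1, Fbxo15, Ccn3 and Vegfc, and every member of both sets passed in both fits.

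Of the proneural cascade's 28 tested members (40 listed), 14 were called higher and 2 lower (all tested genes: 10.5% and 7.65%), and the counts were the same without 24 h replicate 1. The median difference was 1.07 and 0.88 in the fits with and without that array, against 0.02 over all genes. The rises included factors of differentiating neurons. Nhlh1 had signals of 658, 389 and 216 at 24 h and 1899.9, 1989 and 1226 at 48 h, a difference of 2.08 ± 0.35 (adjusted p = 0.00161) and 2.46 ± 0.27 without 24 h replicate 1 (adjusted p = 5.17e-05). Onecut2, a cut-homeodomain factor, gave 18.9, 97.2 and 138 at 24 h and 1178, 1299.6 and 946 at 48 h, or 3.76 ± 0.43 (adjusted p = 1.43e-04) and 3.12 ± 0.22 without 24 h replicate 1 (adjusted p = 3.10e-06). Groups did not overlap for either. Sox11 (2.48 ± 0.30 and 2.67 ± 0.27), Ebf1 (2.45 ± 0.31 and 2.37 ± 0.32) and Neurod4 (2.27 ± 0.39 and 1.75 ± 0.23) also rose.

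Several proneural factors that were already high at 24 h did not pass on the second day. Insm1, a zinc-finger factor of neuronal progenitors, had signals of 3491, 2033 and 988 at 24 h and 2306, 1977 and 976 at 48 h, a difference of -0.22 ± 0.48 (adjusted p = 0.777) and 0.21 ± 0.43 without 24 h replicate 1 (adjusted p = 0.76). Neurod1 differed by 0.49 ± 0.45 (adjusted p = 0.463) and 0.27 ± 0.46 without 24 h replicate 1 (adjusted p = 0.713). Ebf2 differed by 0.95 ± 0.46 (adjusted p = 0.172) and 0.74 ± 0.47 without 24 h replicate 1 (adjusted p = 0.278). For all 3 the arrays of 24 and 48 h overlapped. Uninduced signals were 16 to 66.9 for Insm1 and 75.2 to 389 for Neurod1, so both were already high at 24 h. Neurod2 stayed low, at 52.9, 45.4 and 30.1 at 24 h and 54.8, 77.7 and 51.4 at 48 h. The 2 members called lower were Gadd45g (-2.09 ± 0.27 and -1.86 ± 0.22), which acts in growth arrest, and the Hes family member Hes6 (-1.17 ± 0.36 and -0.73 ± 0.25). Hes6, at 3630.4, 1502 and 1394 against 956, 919.7 and 734, lost its call under 12 alternatives, among them leaving out any 48 h array. With the replicate number as a block the call was also lost for Hes6, without 24 h replicate 1 (adjusted p = 0.0508).

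Of the Notch pathway's 31 tested members, 8 were called higher and 0 lower (2 and, without 24 h replicate 1, 0 lower at an unadjusted limma p under 0.05) (25.8% higher, all genes 10.5%), or 9 and 0 without 24 h replicate 1 (29.0% higher, all genes 14.2%), with medians of 0.23 and 0.56. The count of rises fell to 5 without 48 h replicate 1 and to 5 without 48 h replicate 2, and the median was -0.02 without 24 h replicate 3. With the replicate number as a block, 2 members were called lower. Ligands differed among themselves. Dll1, the ligand raised by proneural factors, had signals of 1793, 1139.7 and 872 at 24 h and 669.8, 605 and 1048 at 48 h and did not pass, at -0.68 ± 0.32 (adjusted p = 0.156) and -0.40 ± 0.26 without 24 h replicate 1 (adjusted p = 0.298). Jag1 gave 258, 364 and 232 at 24 h and 2014, 1724 and 1817 at 48 h, or 2.66 ± 0.27 (adjusted p = 6.34e-05) and 2.60 ± 0.25 without 24 h replicate 1 (adjusted p = 2.11e-05). Dner, a Delta-like transmembrane ligand of neurons, differed by 2.70 ± 0.27 (adjusted p = 5.25e-05) and 2.70 ± 0.27 without 24 h replicate 1 (adjusted p = 2.45e-05). Of the targets, Hes5 rose from 159, 75.2 and 31.5 to 1861, 1478 and 1398, or 4.12 ± 0.41 (adjusted p = 5.63e-05) and 4.59 ± 0.32 without 24 h replicate 1 (adjusted p = 3.10e-06). Hey1 rose by 1.94 ± 0.25 (adjusted p = 2.87e-04) and 2.05 ± 0.25 without 24 h replicate 1 (adjusted p = 1.12e-04). The ubiquitin ligase Mib1, which activates ligands in the sending cell, differed by 2.35 ± 0.61 and 1.33 ± 0.18. Mib1 read 34.3, 389 and 411 at 24 h, lowest on replicate 1, and its call was lost without 48 h replicate 1 or 2.

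Id1, Id3 and Id4, antagonists of bHLH factors and targets of BMP signalling, were higher at 48 h. Id3 gave 34.2, 46.8 and 10.9 at 24 h and 712, 303 and 1666 at 48 h against 224 to 374 in uninduced cells, so that it was low at 24 h alone, and the difference was 4.06 ± 0.65 (adjusted p = 0.00106) and 4.15 ± 0.69 without 24 h replicate 1 (adjusted p = 8.41e-04). Id1 differed by 1.90 ± 0.52 (adjusted p = 0.0243) and 2.40 ± 0.46 without 24 h replicate 1 (adjusted p = 0.00191). Id4 differed by 2.03 ± 0.40 (adjusted p = 0.0038) and 2.01 ± 0.41 without 24 h replicate 1 (adjusted p = 0.00307). Id2, at 1314, 728 and 508 at 24 h and 1806, 1558 and 1392 at 48 h, did not pass in the first fit and passed in the second, 0.99 ± 0.38 (adjusted p = 0.0892) and 1.35 ± 0.32 without 24 h replicate 1 (adjusted p = 0.00755). With the replicate number as a block it passed in the first too (adjusted p = 0.0224). The call of Id1 was lost without 24 h replicate 2 or 3, or 48 h replicate 1 or 3. The ligand Nodal was lower, at 706, 618 and 492 at 24 h and 77.7, 139.8 and 84.7 at 48 h (-2.44 ± 0.37, adjusted p = 8.56e-04, and -2.32 ± 0.38, adjusted p = 7.28e-04, without 24 h replicate 1). Its target Lefty1 differed by -2.08 ± 0.55 and -2.28 ± 0.58, a call lost without 48 h replicate 1 or 3. The activin and Nodal receptor Acvr2a was higher (1.80 ± 0.45 and 1.10 ± 0.19), a call lost without 48 h replicate 2. Of the whole list's 32 tested members, 9 were called higher and 4 lower (28.1% and 12.5%, all genes 10.5% and 7.65%). Leaving out 48 h replicate 1 left 4 and 1, and leaving out 48 h replicate 2 left 4 higher. Without 24 h replicate 1 the counts were 10 and 6 (31.2% and 18.8%, all genes 14.2% and 11.4%).

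Of the neuronal cytoskeleton list's 40 tested members, 22 were called higher and 0 lower (0 and, without 24 h replicate 1, 0 lower at an unadjusted limma p under 0.05) (55.0% higher, all genes 10.5%), and 25 and 0 without 24 h replicate 1 (62.5% higher, all genes 14.2%), with medians of 1.22 and 1.28. The dendritic microtubule protein Map2 had signals of 48.1, 256 and 211 at 24 h and 1262, 1359 and 1288 at 48 h, or 3.06 ± 0.42 (adjusted p = 3.89e-04) and 2.41 ± 0.16 without 24 h replicate 1 (adjusted p = 2.55e-06). Neurofilament light chain, Nefl, gave 101, 65.1 and 88.3 at 24 h and 1307, 1541 and 694 at 48 h against 199.8 to 243 in uninduced cells, so that 24 h was its lowest time. It rose by 3.51 ± 0.29 (adjusted p = 2.59e-05) and 3.63 ± 0.28 without 24 h replicate 1 (adjusted p = 4.74e-06) and read 5649.9, 5975 and 8139 at 72 h. Nefm rose by 3.47 ± 0.43 and 3.53 ± 0.45. Tubb3, the neuronal beta-tubulin, gave 2333, 873 and 544 at 24 h and 3781, 3586 and 3101 at 48 h, or 1.73 ± 0.40 (adjusted p = 0.00931) and 2.31 ± 0.21 without 24 h replicate 1 (adjusted p = 1.36e-05), with a call that was lost when the 24 and 48 h arrays were fitted alone. Stmn2, which regulates microtubules in growth cones, gave 1654, 1274 and 686 at 24 h and 4150.0, 3954 and 2528 at 48 h against 3222 to 3649 in uninduced cells, a difference of 1.6 ± 0.28 (adjusted p = 0.00206) and 1.87 ± 0.24 without 24 h replicate 1 (adjusted p = 1.37e-04). Mapt, the axonal tau protein, did not pass and read 28.9, 26.5 and 30.9 at 24 h and 41.2, 51.5 and 17.3 at 48 h, with 317, 353 and 203 at 72 h.

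Of the neuronal RNA-binding list's 27 tested members, 14 were called higher and 0 lower (1 and, without 24 h replicate 1, 3 lower at an unadjusted limma p under 0.05) in both fits (medians 0.96 and 0.81), falling to 8 higher without 48 h replicate 1 and 9 without 48 h replicate 2. The 14 rises were 51.9%, against 10.5% and 14.2% of all genes. The Hu proteins, which stabilise neuronal transcripts, were among the rises. Elavl4 gave 21.7, 104 and 107 at 24 h and 1012, 1145 and 649 at 48 h, or 3.50 ± 0.43 (adjusted p = 1.99e-04) and 2.94 ± 0.28 without 24 h replicate 1 (adjusted p = 1.85e-05). Elavl3 differed by 2.70 ± 0.33 and 2.66 ± 0.33. The splicing factor Rbfox3, known as NeuN, differed by 2.18 ± 0.34 and 2.36 ± 0.34. Synaptic genes moved less evenly. Of that list's 37 tested members (48 listed), 11 were called higher and 2 lower (29.7% and 5.41%, all genes 10.5% and 7.65%). Without 24 h replicate 1 the counts were 17 and 1 (45.9% and 2.7%, all genes 14.2% and 11.4%). Snap25 rose from 3.46, 32.1 and 17.5 to 504, 577 and 349, or 3.94 ± 0.32 (adjusted p = 2.57e-05) and 3.59 ± 0.24 without 24 h replicate 1 (adjusted p = 3.10e-06). Cadps, which primes dense-core vesicles, rose by 2.62 ± 0.27 and 2.64 ± 0.28, and Syt11 by 2.10 ± 0.31 and 2.06 ± 0.31. Synaptophysin, Syp, gave 392, 122 and 41.5 at 24 h and 488, 498 and 298 at 48 h, high on 24 h replicate 1. It differed by 1.55 ± 0.52 (adjusted p = 0.0584) and 2.28 ± 0.34 without 24 h replicate 1 (adjusted p = 3.49e-04) and passed in the first fit with the replicate block (adjusted p = 0.0447). Dense-core vesicle cargo was called higher for 10 of 16 members and 12 without 24 h replicate 1, with none lower (0 and 0 at an unadjusted limma p under 0.05) and medians of 1.52 and 1.54. Sst read 27.3, 19.9 and 8.39 at 24 h and 314, 246 and 549.9 at 48 h, rising by 3.44 ± 0.50 (adjusted p = 6.22e-04) and 3.63 ± 0.53 without 24 h replicate 1 (adjusted p = 3.23e-04). Gal read 155, 51.9 and 44.2 at 24 h and 961, 754 and 1347 at 48 h and, at 72 h, 179, 192 and 281.

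Of the axon guidance list's 47 tested members (56 listed), 27 were called higher and 0 lower (1 and, without 24 h replicate 1, 1 lower at an unadjusted limma p under 0.05), and 28 and 0 without 24 h replicate 1 (medians 1.18 and 1.23). The rises were 57.4% and 59.6% of those tested. Among all genes 10.5% and 14.2% were higher and 7.65% and 11.4% lower. Dcc gave 3.87, 10.1 and 1.65 at 24 h and 499, 511 and 276 at 48 h, rising by 4.36 ± 0.33 (adjusted p = 2.01e-05) and 4.32 ± 0.35 without 24 h replicate 1 (adjusted p = 7.10e-06). The contactin Cntn1 rose by 3.07 ± 0.34 and 2.91 ± 0.34, the repellent ligand Slit1 by 2.60 ± 0.24 and 2.64 ± 0.27 and the adhesion molecule Nrcam by 2.50 ± 0.36 and 2.43 ± 0.38. Ion channels were called higher for 12 of 23 tested (41 listed) and lower for 1 (52.2% and 4.35%), or 15 and 1 (65.2% and 4.35%). The calcium channel subunit Cacna2d1 gave 1.05, 73.8 and 52.0 at 24 h and 496, 591 and 361 at 48 h, or 3.38 ± 0.51 (adjusted p = 8.19e-04) and 2.65 ± 0.32 without 24 h replicate 1 (adjusted p = 8.43e-05). The sodium channel Scn9a of sensory neurons rose by 2.88 ± 0.39 and 2.87 ± 0.42. Transmitter receptors were called higher for 12 of 21 tested (46 listed, 57.1% of those tested) in both fits and lower for none (0 and 0 at an unadjusted limma p under 0.05). They included nicotinic subunits. Chrna3 gave 58.7, 61.2 and 55.2 at 24 h and 770.2, 605 and 1392 at 48 h, or 3.57 ± 0.46 (adjusted p = 2.69e-04) and 3.57 ± 0.49 without 24 h replicate 1 (adjusted p = 2.02e-04). Chrna5 was at 1.73 ± 0.38 and 1.65 ± 0.40 and Chrnb4 at 1.54 ± 0.31 and 1.89 ± 0.25. The purinergic receptor P2rx3 of nociceptors rose by 2.59 ± 0.31 and 2.45 ± 0.31. With only genes above the 75th percentile tested, the counts of rises were 17 of 22 for guidance, 6 of 7 for channels and 6 of 8 for receptors. A gene low at 24 h was tested only if it was above the array median on all arrays of another group. The shares of rises among tested members thus depend in part on that filter.

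Of the list for sensory neurons and placodes, 11 of 21 tested members (38 listed) were called higher and 0 lower in both fits, with 1 and 1 lower at an unadjusted limma p under 0.05 (medians 1.26 and 1.10). Rises were 52.4% in each fit, against 10.5% and 14.2% of all genes. The LIM-homeodomain factor Isl1 had signals of 44.4, 122 and 82.8 at 24 h and 803, 1523 and 1067 at 48 h, or 3.56 ± 0.31 (adjusted p = 2.84e-05) and 3.25 ± 0.24 without 24 h replicate 1 (adjusted p = 3.82e-06). Ret, the receptor of GDNF-family ligands, gave 11.9, 25.6 and 29.1 at 24 h and 317, 615 and 504 at 48 h, or 3.68 ± 0.35 (adjusted p = 4.71e-05) and 3.47 ± 0.35 without 24 h replicate 1 (adjusted p = 2.45e-05). The neurotrophin-3 receptor Ntrk3 differed by 2.22 ± 0.35 and 2.48 ± 0.35. All 48 h arrays lay above all 24 h arrays for each. Genes of transmitter synthesis and transport did not share a direction, with 3 of 13 higher and 2 lower (23.1% and 15.4%, all genes 10.5% and 7.65%). Without 24 h replicate 1 they were 2 and 1 (15.4% and 7.69%, all genes 14.2% and 11.4%). Slc18a2, the vesicular monoamine transporter, gave 4.39, 18.1 and 10.8 at 24 h and 321, 241 and 433 at 48 h, or 3.68 ± 0.42 (adjusted p = 1.34e-04) and 3.49 ± 0.43 without 24 h replicate 1 (adjusted p = 1.12e-04). Ddc, which makes dopamine and serotonin from their precursors, was lower, at 202, 239.7 and 314 at 24 h and 61.0, 91.1 and 158 at 48 h (-1.23 ± 0.30 and -1.37 ± 0.28). The call of Ddc was lost without 48 h replicate 1 and with the mean of all probe sets.

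Of the neural progenitor list's 36 tested members, 23 were called higher and 2 lower (63.9% and 5.56%, all genes 10.5% and 7.65%), and 26 and 3 without 24 h replicate 1 (72.2% and 8.33%, all genes 14.2% and 11.4%), with medians of 1.71 and 1.56. Crabp1 gave 527, 366 and 325 at 24 h and 6963, 4214 and 7880.3 at 48 h, or 3.90 ± 0.31 (adjusted p = 2.57e-05) and 4.09 ± 0.29 without 24 h replicate 1 (adjusted p = 3.41e-06). The nuclear receptor Nr2f1 gave 0.982, 14.3 and 12.8 at 24 h and 436, 379.7 and 221 at 48 h, or 3.83 ± 0.33 (adjusted p = 2.72e-05) and 3.56 ± 0.30 without 24 h replicate 1 (adjusted p = 8.91e-06), with a range of 2.45 to 5.48 over the alternatives. Ptn gave 31.4, 120.1 and 59.5 at 24 h and 2035, 1530.2 and 1002 at 48 h. In none of these did the groups overlap. N-cadherin, Cdh2, the cadherin of the neural plate, gave 95.5, 197 and 149 at 24 h and 1467, 1343 and 1259.9 at 48 h, or 3.12 ± 0.31 (adjusted p = 5.63e-05) and 2.87 ± 0.27 without 24 h replicate 1 (adjusted p = 1.58e-05). Of the factors of neural tube position, 9 of 24 tested (53 listed) were called higher and 1 lower in both fits (37.5% and 4.17%), with medians of 0.46 and 0.62, and 5 higher without 48 h replicate 1. They spanned dorsal and ventral marks. Pax3, a dorsal factor, gave 25.9, 63.8 and 29.3 at 24 h and 306, 343 and 508 at 48 h, or 2.88 ± 0.30 (adjusted p = 6.63e-05) and 2.71 ± 0.29 without 24 h replicate 1 (adjusted p = 4.24e-05). Foxa2, a floor plate and endoderm factor, gave 35.7, 7.08 and 2.38 at 24 h and 155, 112 and 94.4 at 48 h, or 2.26 ± 0.33 (adjusted p = 6.80e-04) and 2.71 ± 0.25 without 24 h replicate 1 (adjusted p = 1.66e-05). Irx3 differed by 2.34 ± 0.37 and 2.72 ± 0.30. The forebrain and epiblast factor Otx2 was the member called lower (-2.61 ± 0.72 and -2.44 ± 0.78), a call lost without 24 h replicate 2, 48 h replicate 1 or 48 h replicate 3.

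**Figure D2:**
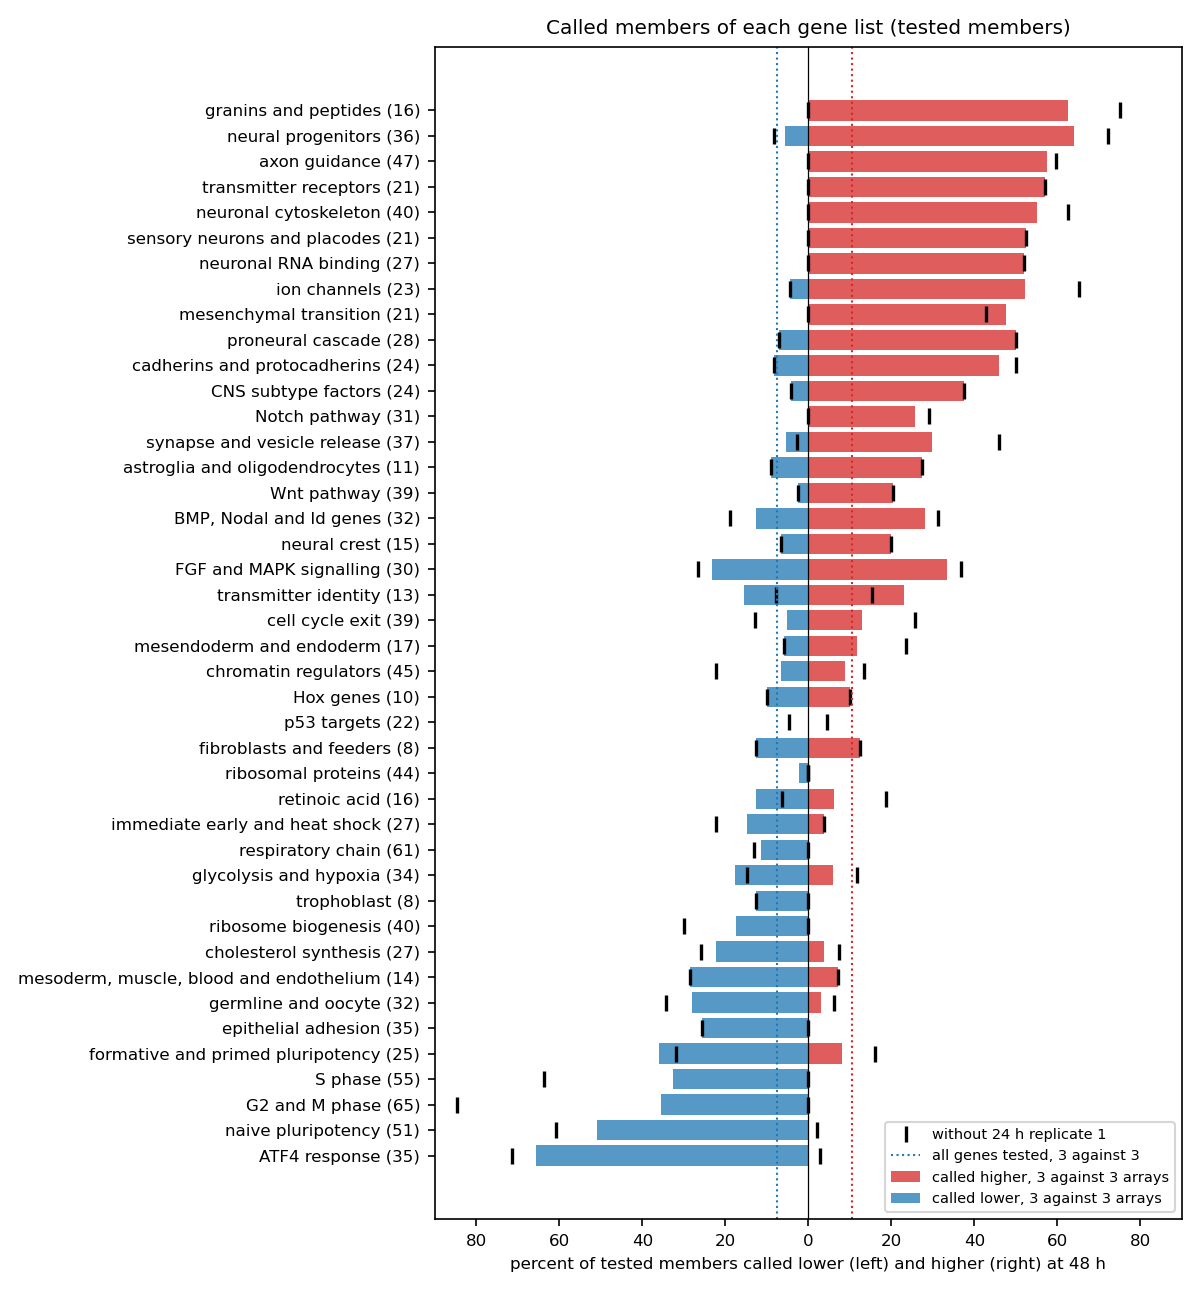
Percent of the tested members of each of the 42 gene lists called lower (bars to the left) and higher (bars to the right) at 48 h in the fit of 3 arrays against 3, with ticks for the fit without 24 h replicate 1. Dotted lines mark all tested genes (7.65% lower, 10.5% higher). Neuronal and progenitor lists extend to the right; naive pluripotency, cell cycle and ATF4 lists extend to the left.

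Of the naive pluripotency list's 51 tested members, 0 were called higher and 26 lower (0 and, without 24 h replicate 1, 1 higher at an unadjusted limma p under 0.05) (51.0% lower, all genes 7.65%), and 1 and 31 without 24 h replicate 1 (60.8% lower, all genes 11.4%), with medians of -1.53 and -1.44. Relative to the uninduced mean, the median level over the list was -1.08, -0.84 and -1.13 on the 24 h arrays and -3.11, -2.54 and -2.99 on the 48 h arrays, so that most of the decline of this median came on the second day. The summed signal of the list was 108300 to 112000 in uninduced cells, 54560 to 71440 at 24 h and 21750 to 27830 at 48 h. In signal units its larger drop came by 24 h. As a ratio, both the lowest and the highest sum fell more on the second day. Members differed in timing. Nanog read 3227 to 4042 in uninduced cells, 589, 949.8 and 838 at 24 h and 90.6, 309 and 243 at 48 h, with a second-day difference of -1.93 ± 0.38 (adjusted p = 0.00399) and -2.13 ± 0.37 without 24 h replicate 1 (adjusted p = 0.00114). Esrrb gave 480.4, 521 and 284 at 24 h and 18.8, 58.3 and 38.7 at 48 h against 862 to 1161, and differed by -3.05 ± 0.31 (adjusted p = 6.90e-05) and -2.95 ± 0.32 without 24 h replicate 1 (adjusted p = 4.01e-05). Klf4 read 1177 to 1894 in uninduced cells and 163, 225 and 129 at 24 h, was thus already low, and did not pass, at -0.57 ± 0.29 (adjusted p = 0.18) and -0.59 ± 0.28 without 24 h replicate 1 (adjusted p = 0.143). Sox2, which neural precursors keep, read 3331, 4106 and 3337 at 24 h and 2684, 2874 and 2817 at 48 h, lower on all 48 h arrays, and did not pass, at -0.36 ± 0.16 (adjusted p = 0.144) and -0.41 ± 0.14 without 24 h replicate 1 (adjusted p = 0.0514). With the replicate number as a block it passed for Sox2, without 24 h replicate 1 (adjusted p = 0.0463). Lin28a was the single member called higher without 24 h replicate 1 (0.85 ± 0.15), with signals of 3478, 1481 and 1440.5 at 24 h and 3074, 2438 and 2459.7 at 48 h. L1td1 read 297, 2778 and 2172 at 24 h and 149, 419 and 174 at 48 h, low on 24 h replicate 1, and its call (-2.38 ± 0.69 and -3.37 ± 0.41) was lost without 24 h replicate 2 or 3, or 48 h replicate 1 or 3.

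By its median, the formative and primed list lay above the uninduced level at 24 h and near it at 48 h. That median relative to uninduced cells was 1.40, 0.96 and 0.76 at 24 h and -0.52, 0.17 and -0.16 at 48 h. By summed signal it stayed above uninduced cells, at 7538 to 10970 in them, 11630 to 26640 at 24 h and 13720 to 14790 at 48 h. Of its 25 tested members, 2 were called higher and 9 lower, and 4 and 8 without 24 h replicate 1, with medians of -1.02 and -0.65. Etv5, which FGF signalling raises, gave 2899, 1347 and 1002 at 24 h and 109, 214 and 132 at 48 h, or -3.30 ± 0.36 (adjusted p = 1.07e-04) and -2.86 ± 0.26 without 24 h replicate 1 (adjusted p = 1.27e-05). Etv4 differed by -2.94 ± 0.41 and -2.47 ± 0.34 and the FGF antagonist Spry4 by -2.58 ± 0.43 and -2.18 ± 0.39. Sox4, counted in this list and also active in neurons, was higher (1.34 ± 0.32 and 1.28 ± 0.33). The number of falls was 5 without 24 h replicate 2, 4 without 48 h replicate 1 and 5 without 48 h replicate 3. Of germline and oocyte genes, 9 of 32 were called lower and 1 higher (28.1% and 3.12%), or 11 and 2 (34.4% and 6.25%). The maternal-effect genes Ooep (-2.93 ± 0.38 and -2.76 ± 0.38) and Khdc3 (-1.83 ± 0.25 and -1.78 ± 0.25) were among the falls.

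S phase and G2 and M phase genes that passed were lower at 48 h, and how many passed depended on 24 h replicate 1. Of the S phase list's 55 tested members, 0 were called higher and 18 lower (1 and, without 24 h replicate 1, 0 higher at an unadjusted limma p under 0.05), and 35 lower and 0 higher without 24 h replicate 1, with medians of -0.61 and -0.62. The falls were 32.7% and 63.6%, against 7.65% and 11.4% of all genes. Of the G2 and M phase list's 65 tested members, 0 were called higher and 23 lower (0 and, without 24 h replicate 1, 0 higher at an unadjusted limma p under 0.05), and 55 lower and 0 higher without that array, with medians of -0.42 and -0.86. Here the falls were 35.4% and 84.6%. The median level of the G2 and M genes relative to uninduced cells was -0.81, -0.05 and -0.08 on the 24 h arrays and -0.93, -0.94 and -0.74 on the 48 h arrays, so that 24 h replicate 1 alone among the 24 h arrays lay at the 48 h level. For S phase it was 0.13, -0.24 and -0.24 at 24 h and -0.85, -0.94 and -0.78 at 48 h, with no overlap. Other arrays mattered too: the S phase falls numbered 8, 9 and 11 without 48 h replicate 1, 2 or 3, and the G2 and M falls 15 without 48 h replicate 2.

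Some members were lower at 48 h whichever fit was used. Mybl2, the B-Myb factor that drives mitotic genes, had signals of 1830.2, 752 and 500.2 at 24 h and 123, 139 and 132 at 48 h, or -2.61 ± 0.38 (adjusted p = 5.53e-04) and -2.10 ± 0.21 without 24 h replicate 1 (adjusted p = 2.86e-05). Ube2c, the ubiquitin-conjugating enzyme of the anaphase-promoting complex, gave 7155, 4287 and 4296 at 24 h and 1863, 1745 and 1845 at 48 h, or -1.48 ± 0.23 (adjusted p = 9.56e-04) and -1.23 ± 0.17 without 24 h replicate 1 (adjusted p = 2.53e-04). Securin, Pttg1, differed by -1.56 ± 0.24 and -1.48 ± 0.23. The clamp loader subunit Rfc5 gave 3222, 1907 and 1848 at 24 h and 715, 780.4 and 954 at 48 h, or -1.45 ± 0.24 (adjusted p = 0.00128) and -1.20 ± 0.16 without 24 h replicate 1 (adjusted p = 1.80e-04). The single-strand binding protein Rpa1 differed by -1.12 ± 0.20 and -1.03 ± 0.19. Groups did not overlap for any of the 5. Other members turned on the single array. Mki67, the proliferation antigen Ki-67, read 95.0, 1353 and 1316 at 24 h and 971, 853 and 939.7 at 48 h, and its difference was 0.67 ± 0.70 (adjusted p = 0.522) and -0.53 ± 0.15 without 24 h replicate 1 (adjusted p = 0.0187). Ect2, which acts in cytokinesis, read 303, 1654 and 1852 at 24 h and 567, 705 and 788 at 48 h, with -0.52 ± 0.50 (adjusted p = 0.488) and -1.34 ± 0.16 without 24 h replicate 1 (adjusted p = 7.97e-05). The mismatch repair gene Msh6 read 734, 1961 and 1954 at 24 h and 935, 927 and 978 at 48 h, with -0.57 ± 0.31 (adjusted p = 0.221) and -1.04 ± 0.14 without 24 h replicate 1 (adjusted p = 1.71e-04). On 24 h replicate 1 all 3 were far below the other 24 h arrays.

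**Figure D3:**
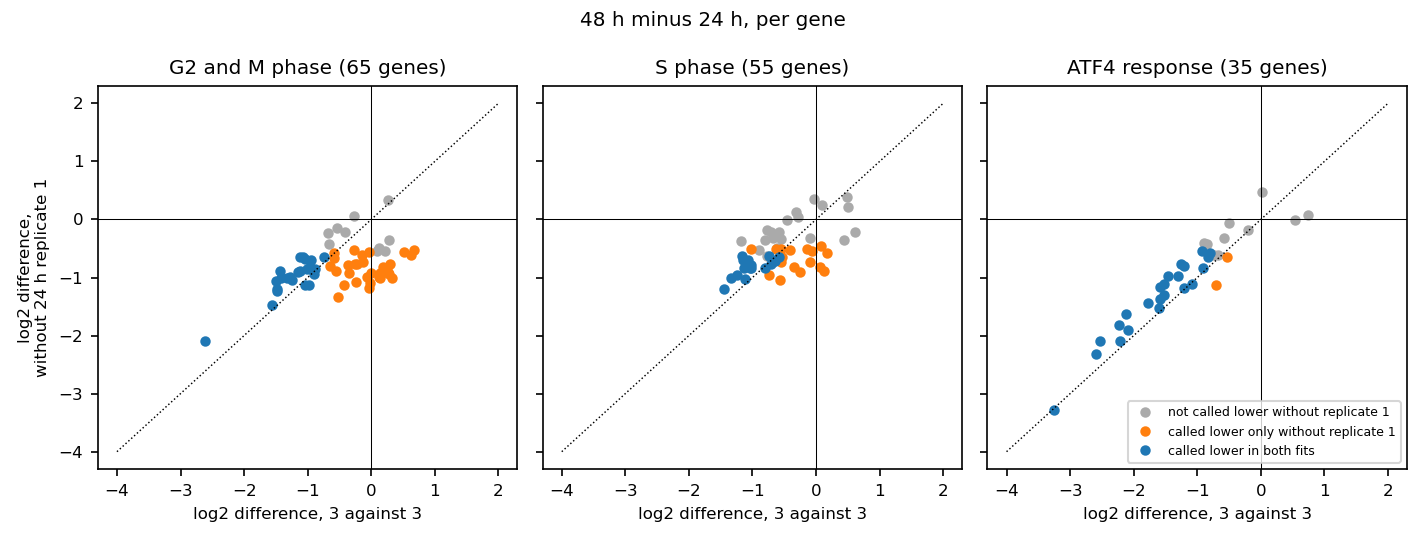
Log2 difference, 48 h minus 24 h, of each tested member of the G2 and M phase, S phase and ATF4 lists in the fit of 3 arrays against 3 (x axis) and without 24 h replicate 1 (y axis); the dotted line marks equal values and the colours the calls. Many G2 and M genes lie near 0 on the x axis and below 0 on the y axis (medians -0.42 and -0.86), while ATF4 genes lie near the line (medians -1.21 and -0.97).

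The promoters of these lists share known letters. TTTGAA, the core of the cell cycle homology region bound by repressor complexes at mitotic genes, occurred on either strand in 36 of 54 promoters of the G2 and M list (66.7%), against 11.3% of tested genes and 18.1% of the table. CCAAT, the NF-Y letters, occurred in 70.4% of the list and 39.2% of tested genes. TTTCCCGC, an E2F site, occurred in 17.4% of the S phase list, 2.23% of tested genes and 1.11% of the table. Matches of different motifs were counted separately and can share bases. Such genes are known partly through these letters, so the shares describe the lists and are not independent of them. Shown with the match in capitals are the 3 G2 and M genes with the largest falls without 24 h replicate 1 that hold TTTGAA before the start, Ect2 (chr3:27153957-27154022, minus strand), Ube2c (chr2:164769870-164769928, plus strand) and Kif11 (chr19:37376333-37376381, plus strand), and the S phase gene Cdc6 (chr11:98907983-98908050, plus strand), the single called one that holds TTTCCCGC there. For all but Ect2 the capitals show the motif as it reads when it lies on the other strand.
Ect2: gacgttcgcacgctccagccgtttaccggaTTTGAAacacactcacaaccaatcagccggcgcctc
Ube2c: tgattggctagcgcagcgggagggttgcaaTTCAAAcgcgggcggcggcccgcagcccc
Kif11: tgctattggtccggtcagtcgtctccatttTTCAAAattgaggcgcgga
Cdc6: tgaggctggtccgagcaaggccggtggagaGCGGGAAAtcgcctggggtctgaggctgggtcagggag
The matches begin 114, 29, 19 and 138 bases before the start site. A match says nothing of which factor acts there.

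Genes of cell cycle exit moved in both directions. Of the cell cycle exit list's 39 tested members, 5 were called higher and 2 lower (12.8% and 5.13%, all genes 10.5% and 7.65%), near the share over all genes. Without 24 h replicate 1 they were 10 and 5 (25.6% and 12.8%, all genes 14.2% and 11.4%). The medians were 0.09 and 0.08. Without 48 h replicate 1, 2 or 3 the rises numbered 3, 4 and 4 and the falls 1, 1 and 2. They numbered 6 and 4 without 24 h replicate 3, 5 and 1 without 24 h replicate 2, and 8 and 2 without uninduced replicate 2. The CDK inhibitors Cdkn1a (-0.68 ± 0.35, adjusted p = 0.201, and -0.28 ± 0.27, adjusted p = 0.473, without 24 h replicate 1), Cdkn1b (0.17 ± 0.34 and 0.19 ± 0.34) and Cdkn1c (0.26 ± 0.36 and 0.42 ± 0.36) did not pass in either fit, nor did cyclin D1, Ccnd1 (-0.19 ± 0.28 and 0.08 ± 0.21). Cyclin D2, Ccnd2, was called higher in both fits, with 1.269 to 1.625 over the alternatives, a call lost without 48 h replicate 1 or 3. Cdkn1c was already high at 24 h, at 2444, 1432 and 2124 at 24 h and 2171, 2195 and 2671 at 48 h against 140.1 to 500.5 in uninduced cells. Growth arrest genes that rose were Gas1, at 106, 76.7 and 75.2 at 24 h and 868, 678 and 754 at 48 h (2.95 ± 0.39, adjusted p = 3.04e-04, and 3.08 ± 0.40, adjusted p = 1.36e-04, without 24 h replicate 1), the imprinted gene Ndn (1.21 ± 0.25 and 1.45 ± 0.19; 3 of its 8 probe sets moved the other way) and Gadd45a (1.31 ± 0.29 and 1.15 ± 0.27). Of 22 tested p53 targets, limma called 0 in the first fit (0 higher and 1 lower at an unadjusted p under 0.05) and 1 in each direction in the second.

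Many genes of amino acid supply were called lower at 48 h. ATF4 is a factor that cells use under amino acid or folding stress to raise amino acid synthesis, transport and tRNA charging. Of the ATF4 list's 35 tested members, 0 were called higher and 23 lower (0 and, without 24 h replicate 1, 1 higher at an unadjusted limma p under 0.05) (65.7% lower, all genes 7.65%), and 25 lower and 1 higher without 24 h replicate 1 (71.4% lower, all genes 11.4%), with medians of -1.21 and -0.97. The median level relative to uninduced cells was 0.97, 0.26 and 0.19 at 24 h, -1.03, -0.72 and -0.92 at 48 h and -0.76, -0.58 and -0.49 at 72 h. The uninduced arrays lay at 0.18, 0.038 and -0.18, so that all 48 h arrays were below them, while 24 h replicates 2 and 3 were barely above the highest of them and 24 h replicate 1 clearly so. Summed signals at 24 h, 43690 to 70970, overlapped those of uninduced cells, 37210 to 51050. Nupr1 had signals of 775, 876 and 797 at 24 h and 40.3, 125 and 67.0 at 48 h, or -3.25 ± 0.31 (adjusted p = 4.71e-05) and -3.29 ± 0.32 without 24 h replicate 1 (adjusted p = 1.95e-05). Chac1, which degrades glutathione, gave 1119, 528 and 355 at 24 h and 53.8, 145 and 88.7 at 48 h, or -2.53 ± 0.39 (adjusted p = 8.98e-04) and -2.09 ± 0.30 without 24 h replicate 1 (adjusted p = 3.03e-04). The arginine transporter Slc7a3 (-2.59 ± 0.39 and -2.32 ± 0.36), mitochondrial serine hydroxymethyltransferase Shmt2 (-2.23 ± 0.35 and -1.82 ± 0.25) and cystathionine lyase Cth (-2.22 ± 0.24 and -2.09 ± 0.21) also fell, with no overlap between groups. Ddit4, a stress-induced inhibitor of mTOR, was the member called higher in the second fit (0.03 ± 0.31 and 0.47 ± 0.15), with 2999, 1066 and 1326 at 24 h, highest on replicate 1, and 1842, 1656 and 1473 at 48 h. With the 24 and 48 h arrays alone, 15 members were called lower.

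The composite element read by C/EBP-ATF dimers, TGATGNAA, occurred on either strand in 8 of 29 promoters of the list (27.6%), against 2.15% of tested genes and 4.06% of the table. Of the members called lower without 24 h replicate 1, 7 of 20 promoters held it (35.0%). Target genes of ATF4 are known partly through this element, so the share describes the list. The 3 called members with the largest falls that hold it before the start were Nupr1 (chr7:126625543-126625610, minus strand), Chac1 (chr2:119351019-119351086, plus strand) and the alanyl-tRNA synthetase gene Aars (chr8:111033700-111033767, plus strand). The capitals mark the element, which lies on the other strand in all 3.
Nupr1: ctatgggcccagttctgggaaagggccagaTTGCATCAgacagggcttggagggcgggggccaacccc
Chac1: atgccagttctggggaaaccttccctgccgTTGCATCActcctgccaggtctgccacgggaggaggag
Aars: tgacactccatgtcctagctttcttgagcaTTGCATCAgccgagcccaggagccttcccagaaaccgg
The matches begin 110, 193 and 112 bases before the start site.

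**Figure D4:**
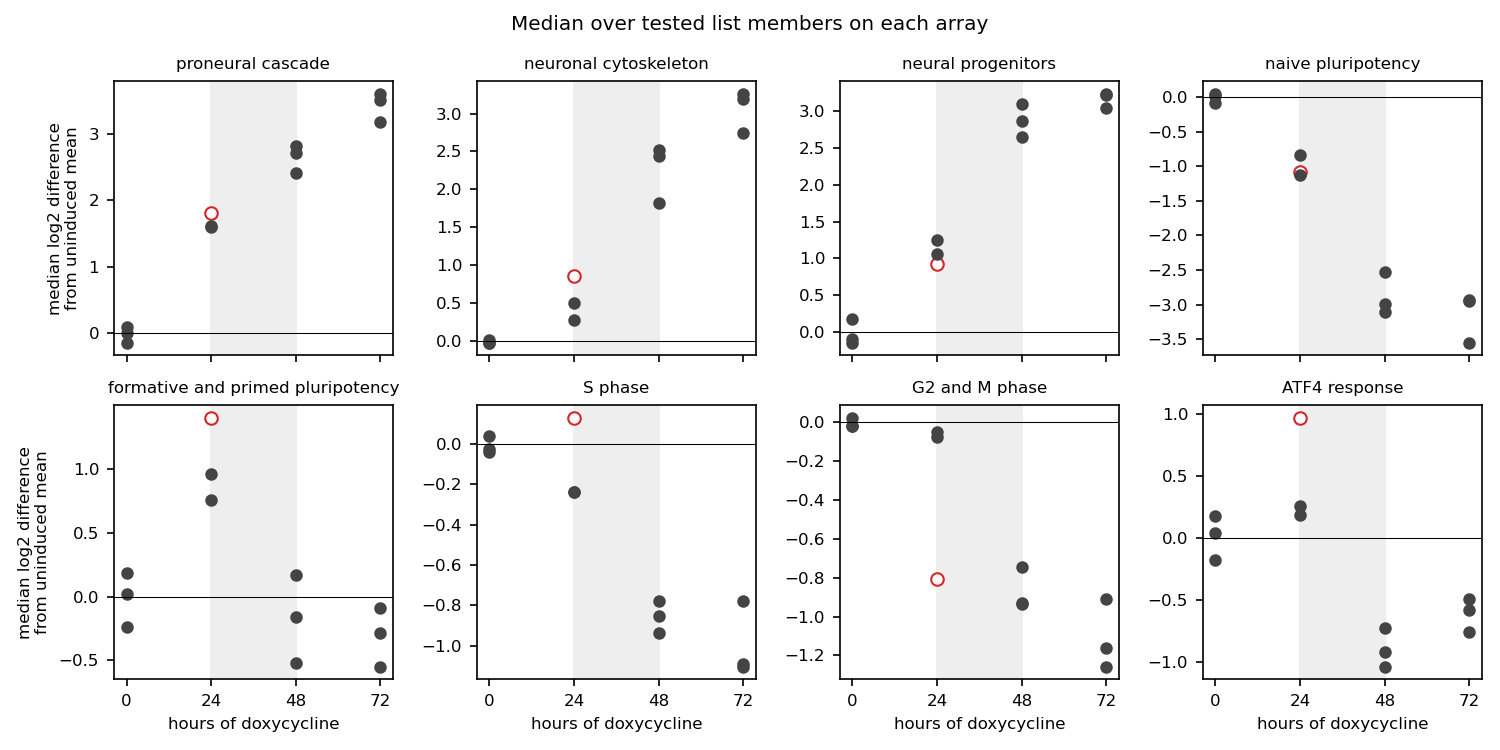
Median log2 difference from the uninduced mean over the tested members of 8 lists on each of the 12 arrays, by hours of doxycycline (0, 24, 48, 72), with 24 h replicate 1 as the open red circle and the 24 to 48 h interval shaded. Neuronal lists rise and naive pluripotency falls across the interval; the ATF4 list passes from 0.97, 0.26 and 0.19 to -1.03, -0.72 and -0.92.

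Other metabolic lists moved less. Over all tested genes 10.5% were called higher and 7.65% lower, or 14.2% and 11.4% without 24 h replicate 1. Cholesterol synthesis, which SREBP factors control, had 6 of 27 members lower and 1 higher, or 7 and 2 without 24 h replicate 1 (medians -0.40 and -0.40), but 3 lower with the mean of all probe sets. The desaturase Scd1 gave 1684, 1272 and 2326 at 24 h and 683, 664 and 729.5 at 48 h, or -1.28 ± 0.28 (adjusted p = 0.00781) and -1.30 ± 0.28 without 24 h replicate 1 (adjusted p = 0.004). Glycolysis and hypoxia genes did not share a direction, with 6 of 34 lower and 2 higher, or 5 and 4. Hexokinase 2, Hk2, gave 1951, 1327 and 1550.0 at 24 h and 351, 436 and 423 at 48 h, or -1.94 ± 0.21 (adjusted p = 9.27e-05) and -1.80 ± 0.16 without 24 h replicate 1 (adjusted p = 1.11e-05). The pyruvate dehydrogenase kinase Pdk1 fell as well (-1.68 ± 0.23 and -1.80 ± 0.19). Lactate dehydrogenase A, Ldha, read 7328, 2902 and 2318 at 24 h and 4956, 4745 and 4073 at 48 h, high on 24 h replicate 1, and was called higher without it and not with it (0.32 ± 0.32, adjusted p = 0.504, and 0.82 ± 0.14, adjusted p = 0.00108, without 24 h replicate 1).

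Respiratory chain subunits were called lower for 7 of 61 (11.5%, all genes 7.65%) and 8 without 24 h replicate 1 (13.1%, all genes 11.4%), near the share over all genes. Their differences were small but mostly negative, for 58 of 61 and 59 without that array, with medians of -0.49 and -0.27. After quantile normalization the median was -0.23. At an unadjusted limma p under 0.05, 36 and 24 were lower and 0 and 0 higher. The number called varied with the arrays used. The count called lower ran from 1 without 48 h replicate 1 or 3, and 2 without 48 h replicate 2, to 18 and 19 without 24 h replicate 2 or 3. It also fell to 3 and 2 without 72 h replicate 1 or 2, and to 4, 3 and 4 without uninduced replicate 1, 2 or 3. Ribosome biogenesis genes were called lower for 7 of 40 and 12 without 24 h replicate 1, with 15 without 24 h replicate 3 and 3, 2 and 2 without 48 h replicate 1, 2 or 3. Of 44 ribosomal protein genes, 1 was called lower in the first fit and none in the second (19 and 2 at an unadjusted limma p under 0.05). Of immediate early and heat shock genes, which mark handling stress, 4 of 27 were lower and 1 higher, or 6 and 1. The small heat shock protein Hspb1 fell, at 5225, 2701 and 2720.1 at 24 h and 252, 606 and 597 at 48 h (-2.86 ± 0.33, adjusted p = 1.52e-04, and -2.54 ± 0.28, adjusted p = 5.29e-05, without 24 h replicate 1), and Jun rose (1.71 ± 0.35 and 1.99 ± 0.32).

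E-cadherin and N-cadherin moved in opposite directions on the second day. E-cadherin, Cdh1, had signals of 2825, 1839 and 1789 at 24 h and 209, 374 and 331 at 48 h against 1849 to 2491 in uninduced cells, or -2.76 ± 0.27 (adjusted p = 5.29e-05) and -2.55 ± 0.23 without 24 h replicate 1 (adjusted p = 1.27e-05). At 24 h it lay near the uninduced range and every 48 h array was far lower, while N-cadherin rose (3.12 ± 0.31 and 2.87 ± 0.27). The epithelial surface protein Epcam also fell (-2.51 ± 0.30 and -2.29 ± 0.26). Of the epithelial list, 9 of 35 members were lower and none higher in both fits (0 and 1 higher at an unadjusted limma p under 0.05). Falls were 25.7% in each fit, against 7.65% and 11.4% of all genes. Of mesenchymal transition genes, 10 of 21 were higher, 9 without 24 h replicate 1 and 5, 6 and 6 without 48 h replicate 1, 2 or 3, and none were lower (0 and 0 at an unadjusted limma p under 0.05). The 10 and 9 rises were 47.6% and 42.9%, against 10.5% and 14.2% of all genes. They included the intermediate filament vimentin, Vim, at 2364, 1902 and 1398 at 24 h and 4332, 4463 and 4649 at 48 h (1.27 ± 0.21, adjusted p = 0.00141, and 1.45 ± 0.18, adjusted p = 1.06e-04, without 24 h replicate 1), the type I TGF-beta receptor Tgfbr1 (2.97 ± 0.51 and 2.15 ± 0.20) and Cdh11 (2.44 ± 0.30 and 2.17 ± 0.28). Vimentin and Cdh11 are also expressed by neural precursors. Differences were positive for 13 members of the list and negative for 8, or 17 and 4 without 24 h replicate 1. The transition factors Zeb1 (1.47 ± 0.38 and 0.93 ± 0.20) and Zeb2 (2.18 ± 0.57 and 1.28 ± 0.27) were called higher in both fits. Of the 4 Zeb1 probe sets 1 moved the other way, and the call of Zeb2 was lost without 48 h replicate 1 or 3. Snai1 (-0.49 and -0.43), Twist1 (-0.30 and 0.13) and Mmp14 (-0.42 and -0.40) did not pass in either fit. Cadherins and protocadherins were called higher for 11 of 24 and lower for 2, or 12 and 2. Pcdh8 gave 193, 194 and 92.9 at 24 h and 2649, 2498 and 2835 at 48 h, Pcdh17 rose by 3.09 ± 0.34 and 2.85 ± 0.32 and the calsyntenin Clstn2 by 3.08 ± 0.39 and 2.87 ± 0.39, while Cdh1 and Cdh3 were the 2 that fell.

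Signalling genes moved in both directions. Over all tested genes 10.5% were called higher and 7.65% lower, or 14.2% and 11.4% without 24 h replicate 1. Of the FGF and MAPK list's 30 tested members, 10 were called higher and 7 lower, or 11 and 8 without 24 h replicate 1. Without 48 h replicate 1 the counts were 4 and 4, and the rises numbered 6 without 48 h replicate 2 and 6 without 24 h replicate 3. Falls included the feedback genes Etv4, Etv5 and Spry4 given above. Rises included Fgf18 (1.82 ± 0.30 and 2.11 ± 0.27) and Fgf12 (1.39 ± 0.21 and 1.50 ± 0.24), both dim, at 65.2 to 90.2 and 34.3 to 51.4 at 48 h. Of the Wnt list's 39 tested members, 8 were called higher and 1 lower in both fits (20.5% and 2.56%). There were 4 lower without 24 h replicate 3 and 4 with the replicate block. Secreted antagonists were among the rises, with Sfrp2 at 128, 87.3 and 58.8 at 24 h and 859, 558 and 507 at 48 h (2.63 ± 0.31, adjusted p = 1.84e-04, and 2.86 ± 0.28, adjusted p = 1.99e-05, without 24 h replicate 1) and Frzb at 2.90 ± 0.33 and 3.16 ± 0.32. The receptor Fzd3 rose (3.25 ± 0.56 and 2.34 ± 0.20) and the receptor Fzd5 fell (-1.50 ± 0.24 and -1.57 ± 0.23). Retinoic acid genes were called higher for 1 and lower for 2 of 16 (6.25% and 12.5%), or 3 and 1 (18.8% and 6.25%). Hox genes were called for 1 and 1 of 10 in both fits (10.0% each), near the share over all genes. The retinoic acid receptor Rarg fell (-2.0 ± 0.40 and -1.54 ± 0.30).

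Of 45 tested chromatin regulators, 4 were called higher and 3 lower (8.89% and 6.67%, all genes 10.5% and 7.65%), near the share over all genes. Without 24 h replicate 1 they were 6 and 10 (13.3% and 22.2%, all genes 14.2% and 11.4%). With the replicate number as a block, 5 and 5 were called. The DNA methyltransferase Dnmt3a read 342 to 358 in uninduced cells, 1276, 992 and 840.2 at 24 h and 239, 273 and 141 at 48 h, so it was high at 24 h alone, and differed by -2.20 ± 0.26 (adjusted p = 1.78e-04) and -2.04 ± 0.23 without 24 h replicate 1 (adjusted p = 5.29e-05). Smarca2, the BRM ATPase of the BAF complex, rose by 1.30 ± 0.26 and 1.03 ± 0.23. The 5-methylcytosine oxidases depended on the single array: Tet1 read 243, 2028 and 1549 at 24 h and 269, 435 and 253 at 48 h (-1.53 ± 0.58, adjusted p = 0.0848, and -2.46 ± 0.22, adjusted p = 1.37e-05, without 24 h replicate 1) and Tet2 differed by -0.77 ± 0.46 (adjusted p = 0.26) and -1.51 ± 0.16 without 24 h replicate 1 (adjusted p = 4.27e-05). The Polycomb-like factor Mtf2 read 240.2, 3308 and 2898 at 24 h and 1278, 1604 and 1773 at 48 h, with 0.20 ± 0.70 (adjusted p = 0.867) and -1.0 ± 0.15 without 24 h replicate 1 (adjusted p = 4.80e-04). Rest, the repressor of neuronal genes, read 103, 423 and 512 at 24 h and 189.8, 231 and 316 at 48 h against 1234 to 1346 in uninduced cells, with -0.24 ± 0.44 (adjusted p = 0.731) and -0.91 ± 0.19 without 24 h replicate 1 (adjusted p = 0.004). On 24 h replicate 1 Tet1, Mtf2 and Rest were lowest of the 24 h arrays.

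Markers of other cell types were examined as lists. Over all tested genes 10.5% were called higher and 7.65% lower, or 14.2% and 11.4% without 24 h replicate 1. Astroglia and oligodendrocytes had 3 higher and 1 lower of 11 tested (22 listed), or 3 and 1 without 24 h replicate 1, and a summed signal of 4203 to 4483 at 24 h and 5045 to 5227 at 48 h; Gfap, Aqp4, S100b and Sox10 were under the level for testing. These were 27.3% and 9.09% of tested members in both fits. The rises were Slc1a2 (3.16 ± 0.42 and 2.52 ± 0.22), Nfia (1.97 ± 0.27 and 1.99 ± 0.31) and Sox9 (0.99 ± 0.32 and 1.32 ± 0.29). The fall was Aldh1l1 (-1.36 ± 0.38 and -0.88 ± 0.28). Calls of Sox9 and Aldh1l1 were lost under 17 and 5 alternatives, and 1 of 5 Slc1a2 probe sets moved the other way. With the replicate block 5 were higher. Mesendoderm and endoderm had 2 higher and 1 lower of 17 tested (34 listed), or 11.8% and 5.88%. Without 24 h replicate 1 they had 4 and 1, or 23.5% and 5.88%. Cxcr4 (3.11 ± 0.32 and 3.00 ± 0.33) and Foxa2, given above, rose in both fits. Col4a1 and Col4a2 were called higher in the second fit and not in the first. Hnf4a fell (-1.29 ± 0.36 and -1.36 ± 0.41), a call lost under 7 alternatives. Mixl1, Gsc, Afp and Ttr were under the level for testing. The summed signal was 2013 to 4561 at 24 h and 2411 to 3763 at 48 h. Its 24 h maximum was on replicate 1, where Apoe read 1996 against 683 and 741 on replicates 2 and 3. On replicates 2 and 3 the sums lay below every 48 h sum. Mesoderm, muscle, blood and endothelium had 1 higher and 4 lower of 14 tested (35 listed), or 1 and 4 without 24 h replicate 1. The summed signal was 1557 to 2512 at 24 h and 575 to 753 at 48 h, with Myod1, Myog, Tnnt2 and Cdh5 under the level for testing. Among those that fell was the T-box gene Tbx4, at 2.84, 15.2 and 2.6 in uninduced cells, 828, 472 and 292 at 24 h and 45.7, 74.3 and 52.1 at 48 h (-2.79 ± 0.35, adjusted p = 2.38e-04, and -2.42 ± 0.31, adjusted p = 1.37e-04, without 24 h replicate 1). Kdr, Tcf15 and Pecam1 also fell. Tcf15 and Pecam1 were already present in uninduced ES cells, at 506 to 740 and 122 to 172. Tcf15 read 915, 537 and 573 at 24 h and 101, 147 and 188 at 48 h.

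Trophoblast had 0 higher and 1 lower of 8 tested (18 listed), or 0 and 1 without 24 h replicate 1, and a summed signal of 1245 to 3883 at 24 h and 569.6 to 739 at 48 h, with Elf5, Gcm1 and Tpbpa under the level for testing; the member that fell was Tfap2c (-3.00 ± 0.29 and -2.83 ± 0.27), a factor that ES and germ cells also express. Fibroblasts and feeders had 1 higher and 1 lower of 8 tested (22 listed), and the same without 24 h replicate 1 (12.5% each), near the share over all genes. Their summed signal was 551 to 1202 at 24 h and 582 to 1085 at 48 h, with Col1a1, Col3a1 and Dcn under the level for testing. Neural crest had 3 higher and 1 lower of 15 tested (22 listed), or 3 and 1 without 24 h replicate 1, and a summed signal of 1119 to 1260.0 at 24 h and 1483 to 2148 at 48 h, with Sox10 under it. Its rises included Pax3 and the endothelin receptor Ednrb, at 5.54, 2.21 and 10.4 at 24 h and 139, 81.6 and 273 at 48 h (2.91 ± 0.50, adjusted p = 0.00169, and 2.90 ± 0.54, adjusted p = 0.00179, without 24 h replicate 1). The markers that define the labelled cells were present, with Pou5f1 at 4936 to 6063 in uninduced cells and Neurog1 on all 24 and 48 h arrays. The part of such cells in the other results was not tested. Probe sets of a gene did not always move together: apart from cases given above, 1 moved the opposite way among 5 for Ebf1, 8 for Ntrk3, 8 for Sox4, 6 for Mtf2, 4 for Rest, 4 for Mapt, 3 for Neurod2 and 2 for each of Ddc, Syp and Actb. Actb read 11294, 10394 and 11027 at 24 h and 8141, 9691 and 8842 at 48 h and did not pass (-0.30 ± 0.14 and -0.27 ± 0.15); Gapdh had no probe set of a single symbol and was not tested.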

How the data were processed

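Total RNA, made into labelled cRNA per the labels' protocols, was hybridised to 1 array per sample. The authors deposited 1 signal intensity per probe set, from Affymetrix MAS 5 per the submitters' processing notes; each array's trimmed mean (2% off each end) was 150, so they were already scaled. Of 45101 probe sets, 34945 carried a single gene symbol. Per gene the brightest was used, tested if above the array's median on all 3 arrays of any group, as log2(intensity + 16). Genes low at 24 h could thus enter only through arrays of another group, so shares of rises in lists silent at first depend in part on this filter. Fits used limma 3.58.1 (R 4.3.3) with intensity trend, 12 arrays and 4 group terms. P-values are two-sided and adjusted by Benjamini-Hochberg over 11810 genes; called means under 0.05. The script was checked on simulated data. Array number limits the precision.

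Genes and the 42 lists were chosen with earlier results of these data known. Named were the 15 largest rises and falls with groups that do not overlap, in either fit, up to 4 called members per list, direction and fit, and a fixed set of markers. Same-numbered 24 and 48 h arrays deviated together (r 0.134 to 0.428 over 3 pairs), so numbers may pair the samples. Over all groups the 18 same-numbered pairs, these included, ran from 0.0311 to 0.577. The reported fits did not pair the arrays. Pairing entered only in the alternative fit with the replicate number as a block. Alternatives changed normalization, constant, filter, probe set rule, arrays, weights, trend and pairing. Promoters came from RefSeq (GRCm38.p6).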

Additional observations from a re-analysis of the deposited data

How the results depend on the processing

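The 2140 calls, of which 1236 were higher and 904 lower, fell to 1044 (672 and 372) when only the 24 and 48 h arrays were fitted, and testing genes above the 75th percentile left 783 higher. Leaving out 1 array gave 1215 to 3027 calls, 746 to 1681 higher and 469 to 1346 lower; the lowest were without 48 h replicate 1 and the highest without 24 h replicate 1. Higher calls numbered 777 without 48 h replicate 2, and lower calls 572 and 571 without 48 h replicates 2 and 3. In the fit without 24 h replicate 1, leaving out a further array gave 1657 to 3317 calls, 995 to 1821 higher and 662 to 1496 lower, lowest without 24 h replicate 2; without 24 h replicate 3 the counts were 1904, 1051 and 853. With the replicate number as a block, which pairs the arrays, 2529 genes were called, 2111 of them shared; apart from the calls given above it changed those of 10 other genes under the naming rule, and no other list count of 4 or more by over 1.5 times. Quantile normalization gave 2208 calls, a constant of 1 gave 1794, of 64 gave 2255, and array weights 2764; a filter on at least 3 of 12 arrays, chosen after seeing the data, gave 2086. Over the named genes 10503 values kept their direction and side of the threshold, 583 fell below it, 118 rose above it and 33, of 17 results none of which was called as reported, took the other sign. Of these 3 were called: Mki67 without 24 h replicate 1, and Mtf2 without that array and with array weights (-0.87). The others were Mki67 with array weights (-0.43), Actb (0.051), Ccnd1 (0.040), Insm1 (0.016) and Mapt (-0.027) after quantile normalization, Insm1 with array weights (0.43), Neurog1 with the mean of probe sets (-0.10), and values without 1 array. Without 1 array the differences ran from -0.53 to 1.28 for Mki67, -1.0 to 0.85 for Mtf2, -0.41 to 0.082 for Ccnd1, -0.27 to 0.47 for Ddit4, -1.0 to 0.43 for Idi1, -0.69 to 0.21 for Insm1, -0.012 to 0.82 for Ldha, -0.035 to 0.48 for Mapt, -0.91 to 0.17 for Rest, -0.91 to 0.55 for Sesn3, -0.034 to 0.98 for Tead2 and -0.72 to 0.11 for Utp20. With 24 h replicate 1 also left out they ran from -0.088 to 0.25 for Ccnd1, -0.30 to 0.73 for Insm1 and -0.033 to 0.48 for Mapt. Fitted on 6 arrays, the rises of the proneural list numbered 9 and of the RNA-binding list 7, and the falls 4 for S phase, 10 for G2 and M phase and 4 for epithelial genes. There the calls of Id1, Mib1, L1td1 and Ddc were also lost, as was that of Otx2 with a constant of 1. Array weights gave 32 and 47 falls for S phase and for G2 and M phase. Quantile normalization left 5 rises among neural tube factors and a constant of 1 left 6 among mesenchymal genes. Signals under the array median, such as most 24 h values of Rgs4, limit the size of the largest rises. The cause of these shifts was not tested.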
